A study of Mus musculus with 12 samples.

Results

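The FGF ligand and feedback genes described here are 10 of the 24411 genes in the deposited tables, taken by their symbols. They are 4 ligands (Fgf8, Fgf15, Fgf17 and Fgf18), 4 feedback inhibitors (Spry1, Spry2, Spry4 and Dusp6) and 2 ETS transcription factors (Etv4 and Etv5). All 10 were found, and all 10 were among the 14311 genes that passed the filter on low counts. The data are RNA sequencing of cerebral cortex, microdissected from 12 single mouse embryos, with 3 embryos in each of 4 groups. Each age, E12.5 and E14.5, has a group of WT and a group of HARE5Hs/Hs knock-in embryos. In the knock-in, the mouse carries the human version of HARE5, which regulates the Wnt receptor gene Fzd8 and whose sequence changed quickly on the human lineage. The labels name no strain, litter or sex, and the count tables hold no measure of the enhancer itself, so the genotype labels were not checked here.

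In the early forebrain, FGF ligands secreted at the rostral midline spread into the cortical primordium and set frontal identity and progenitor growth. They bind FGF receptor tyrosine kinases together with heparan sulfate, and the signal runs through RAS and the ERK kinases to ETS transcription factors. The same signal switches on its own brakes, the Sprouty proteins and the ERK phosphatase Dusp6, so transcripts of Spry, Dusp6, Etv4 and Etv5 are commonly read as markers of FGF signalling.

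Total expected counts ran from 11593202 to 17670103 per library. Levels are given as CPM, read counts scaled to a common library size, in the order of replicates 1, 2 and 3, and levels of different genes are compared only as the authors' FPKM, which divides by transcript length. Changes are log2 fold changes with a standard error (SE), and "edgeR adjusted p" stands for the quasi-likelihood test of edgeR, with p-values adjusted by Benjamini-Hochberg across all 14311 genes. "Rose" and "fell" are used for genes with an adjusted p under 0.05. The cortex markers (10 genes, among them Emx1 and Tbr1) summed to 1241 to 1532 CPM in the E12.5 embryos and 2193 to 3038 CPM in the E14.5 embryos, against 7.05 to 191 and 22.4 to 128 CPM for 10 markers of the ventral telencephalon. With age 5 of the 10 cortex markers rose, 2 fell and 3 did not pass in each genotype. Among all tested genes 20% rose and 15.2% fell in WT, and 23.7% rose and 22% fell in HARE5Hs/Hs. In WT the neuronal gene Neurod6, also counted among the neuron markers, went from 28.7 ± 12.48 to 544 ± 80.6 CPM, while the dorsal progenitor gene Emx1 stood at 59.3 ± 15.6 and 66.5 ± 2.65 CPM (SD, n = 3). In whole tissue, fewer cells of a type and less RNA per cell cannot be told apart.

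Between E12.5 and E14.5, 8 of the 10 FGF genes fell in WT cortex and 8 of 10 fell in HARE5Hs/Hs cortex, and none rose in either genotype. Of all genes tested, 15.2% fell in WT and 22% fell in HARE5Hs/Hs. The same 8 genes passed in both genotypes: Fgf8, Fgf15, Fgf17, Spry1, Spry4, Dusp6, Etv4 and Etv5. Averaged over the genotypes, 9 of 10 fell, with Spry2 added, against 28.3% of all genes tested. The median log2 change of the 10 genes was −1.63 in WT and −1.84 in HARE5Hs/Hs, where the median over all tested genes was −0.01 and −0.03. The ligands had medians of −3.32 and −4.47, and the feedback inhibitors had medians of −1.36 and −1.64.

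**Figure D1:**
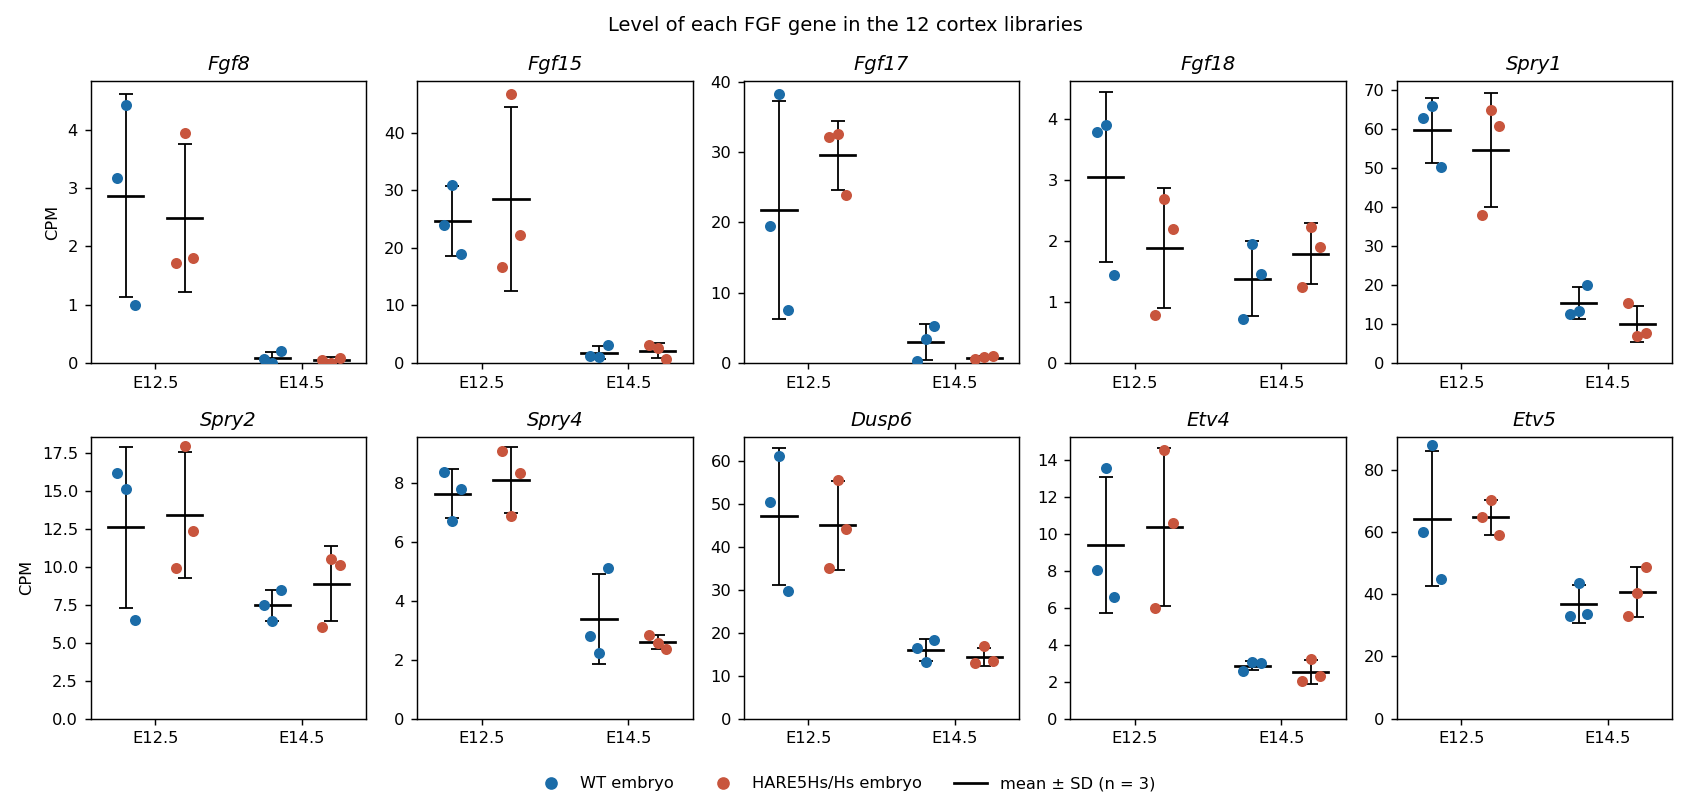
Level of each of the 10 FGF genes in CPM (linear axis from 0, own scale per gene) in each of 12 embryos, by age and genotype; points are embryos and bars the mean ± SD of 3 embryos. The E14.5 embryos sit below the E12.5 embryos, except that the ages overlap in the panels of Fgf18, Spry2 and Etv5.

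Fgf8, the ligand of the rostral signalling centre that organises the frontal forebrain, measured 3.18, 4.43 and 1.00 CPM in the E12.5 WT embryos, 1.71, 3.95 and 1.80 in the E12.5 HARE5Hs/Hs embryos, 0.0664, 0 and 0.199 in the E14.5 WT embryos and 0.0593, 0 and 0.0911 in the E14.5 HARE5Hs/Hs embryos. The E14.5 levels rest on raw counts of 1, 0 and 3 in WT and 1, 0 and 1 in HARE5Hs/Hs embryos. Fgf8 was thus near the detection limit in every E14.5 embryo and clearly counted in every E12.5 embryo, where WT replicate 3 was the lowest. Its log2 change was −4.89 (edgeR adjusted p = 0.00150, SE 0.88) in WT. In HARE5Hs/Hs the fitted change was −5.50 (edgeR adjusted p = 0.000800, SE 0.97), and the 2 counts summed over 3 E14.5 embryos against 127 at E12.5 give a ratio of 54.6 with a 95% counting interval of 14.8 to 456. That interval covers counting error only. The fold in WT rests on the E14.5 embryo with 3 counts: without E14.5 WT replicate 3 the log2 change was −6.10 in WT and −5.80 averaged over the genotypes, where all 12 libraries gave −5.20.

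Fgf15, the mouse orthologue of human FGF19, measured 24.0, 31.0 and 18.9 CPM in the E12.5 WT embryos, 16.6, 46.7 and 22.1 in the E12.5 HARE5Hs/Hs embryos, 1.19, 1.08 and 3.05 in the E14.5 WT embryos and 3.20, 2.56 and 0.638 in the E14.5 HARE5Hs/Hs embryos. Every E14.5 embryo lay far below every E12.5 embryo, and the highest of all was E12.5 HARE5Hs/Hs replicate 2. The WT mean went from 24.6 ± 6.05 to 1.78 ± 1.11 CPM and the HARE5Hs/Hs mean from 28.5 ± 16.0 to 2.14 ± 1.34 CPM (SD, n = 3). Fgf15 fell by 3.79 on the log2 scale in WT (edgeR adjusted p = 0.000466, SE 0.55), a 13.8-fold lower level. In HARE5Hs/Hs it fell by 3.68 (edgeR adjusted p = 0.000266, SE 0.54), or 12.8-fold. Without E14.5 WT replicate 3 the WT change was −4.41.

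Fgf17, a close relative of Fgf8 that shapes the dorsal frontal cortex, measured 19.6, 38.2 and 7.53 CPM in the E12.5 WT embryos, 32.1, 32.6 and 23.9 in the E12.5 HARE5Hs/Hs embryos, 0.265, 3.44 and 5.31 in the E14.5 WT embryos and 0.534, 0.810 and 1.00 in the E14.5 HARE5Hs/Hs embryos. It was the ligand with the widest spread in WT: E12.5 WT replicate 3 and E14.5 WT replicate 3 came within a few CPM of each other, although the ages did not overlap. The 3 HARE5Hs/Hs embryos of each age were close together, and the ages were far apart. The log2 change was −2.85 (edgeR adjusted p = 0.00735, SE 0.69) in WT and −5.26 (edgeR adjusted p = 0.000357, SE 0.81) in HARE5Hs/Hs. Single WT embryos moved the WT value, to −2.15 without E12.5 WT replicate 2 and to −3.53 without E14.5 WT replicate 3. Whether the fall differed between the genotypes was tested by the genotype by age interaction, which gave −2.41 (edgeR adjusted p = 0.921, SE 1.04), so the difference did not pass.

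Fgf18, the remaining member of the Fgf8 subfamily, measured 3.80, 3.91 and 1.44 CPM in the E12.5 WT embryos, 0.795, 2.69 and 2.19 in the E12.5 HARE5Hs/Hs embryos, 0.730, 1.96 and 1.46 in the E14.5 WT embryos and 1.25, 2.23 and 1.91 in the E14.5 HARE5Hs/Hs embryos. All 4 groups overlapped, and the lowest values were found at both ages. The log2 change was −1.14 (edgeR adjusted p = 0.123, SE 0.54) in WT with a 95% interval of −2.32 to 0.04, and −0.08 (edgeR adjusted p = 0.913, SE 0.54) in HARE5Hs/Hs with an interval of −1.26 to 1.10. The HARE5Hs/Hs interval holds a 2-fold change in either direction, and the raw counts behind it were 13, 49 and 33 at E12.5 and 21, 33 and 21 at E14.5.

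The makeup of the summed ligand level shifted with age. The FPKM of the 4 ligands summed to 19.0 to 52.7 (WT) and 33.3 to 57.4 (HARE5Hs/Hs) at E12.5. At E14.5 the sums were 1.53 to 6.69 (WT) and 2.62 to 3.81 (HARE5Hs/Hs), with no overlap of the ages. Fgf18 held a median of 5.21% (1.72% to 8.30%) of that sum over the 6 E12.5 embryos and 34.04% (16.0% to 54.7%) over the 6 E14.5 embryos. Fgf8 held 7.18% (5.72% to 9.61%) and 2.86% (0% to 5.30%), Fgf17 43.2% (26.5% to 62.6%) and 20.1% (10.7% to 52.4%), and Fgf15 42.3% (30.0% to 61.7%) and 34.9% (15.1% to 59.5%). The shares of Fgf18 did not overlap between the ages, while its own level did. These shares are descriptions with no test, and at E14.5 they rest on few counts.

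Among the feedback inhibitors, Spry1, a Sprouty protein that blocks receptor signalling to RAS and ERK, measured 62.8, 65.9 and 50.2 CPM in the E12.5 WT embryos, 37.8, 64.9 and 60.7 in the E12.5 HARE5Hs/Hs embryos, 12.7, 13.4 and 19.98 in the E14.5 WT embryos and 15.3, 7.02 and 7.74 in the E14.5 HARE5Hs/Hs embryos. The ages did not overlap, and within E14.5 the lowest embryos were HARE5Hs/Hs replicates 2 and 3. Spry1 fell by 1.96 in WT (edgeR adjusted p = 0.000522, SE 0.29) and by 2.42 in HARE5Hs/Hs (edgeR adjusted p = 0.000114, SE 0.30) on the log2 scale. Dusp6, the cytoplasmic phosphatase that inactivates ERK, measured 50.5, 61.0 and 29.6 CPM in the E12.5 WT embryos, 35.0, 55.6 and 44.1 in the E12.5 HARE5Hs/Hs embryos, 16.5, 13.2 and 18.3 in the E14.5 WT embryos and 12.9, 16.8 and 13.3 in the E14.5 HARE5Hs/Hs embryos. No E14.5 embryo reached the lowest E12.5 embryo, which was WT replicate 3. Its log2 change was −1.56 (edgeR adjusted p = 0.000771, SE 0.25) in WT and −1.65 (edgeR adjusted p = 0.000334, SE 0.25) in HARE5Hs/Hs, 2.94-fold and 3.13-fold lower.

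Spry4, a further Sprouty inhibitor, measured 8.35, 6.71 and 7.78 CPM in the E12.5 WT embryos, 9.05, 6.86 and 8.31 in the E12.5 HARE5Hs/Hs embryos, 2.79, 2.23 and 5.11 in the E14.5 WT embryos and 2.85, 2.56 and 2.37 in the E14.5 HARE5Hs/Hs embryos. The E12.5 embryos of both genotypes lay close together, and E14.5 WT replicate 3 was the one E14.5 embryo near them without overlapping. The log2 change of Spry4 was −1.17 (edgeR adjusted p = 0.00868, SE 0.29) in WT and −1.63 (edgeR adjusted p = 0.000954, SE 0.30) in HARE5Hs/Hs. Spry2, the Sprouty family member best known from limb and craniofacial growth, measured 16.2, 15.1 and 6.52 CPM in the E12.5 WT embryos, 9.91, 18.004 and 12.4 in the E12.5 HARE5Hs/Hs embryos, 7.50, 6.41 and 8.497 in the E14.5 WT embryos and 6.05, 10.5 and 10.1 in the E14.5 HARE5Hs/Hs embryos. Its ages overlapped in both genotypes: E12.5 WT replicate 3 was as low as the E14.5 embryos. The log2 change of Spry2 was −0.76 (edgeR adjusted p = 0.105, SE 0.34) in WT and −0.60 (edgeR adjusted p = 0.167, SE 0.34) in HARE5Hs/Hs, neither of which passed. Averaged over the genotypes it was −0.68 (edgeR adjusted p = 0.0298, SE 0.24), and that call was lost when any 1 of 6 libraries was left out. These were E12.5 WT replicates 1 and 2 (edgeR adjusted p = 0.0696 and 0.0740), E14.5 WT replicates 1 and 2 (0.0517 and 0.0618), and, among HARE5Hs/Hs embryos, replicate 2 of E12.5 (0.0886) and replicate 1 of E14.5 (0.0613). Without E12.5 WT replicate 3 the WT change of Spry2 was −1.05 (edgeR adjusted p = 0.0206).

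The 250 bases before the start of Dusp6, Spry1 and Spry2 are shown for the feedback inhibitors: Dusp6 and Spry1 fell in both genotypes and Spry2 passed in neither. They are RefSeq sequences on GRCm38.p6 (Dusp6 chr10:99262981-99263230, plus strand, Spry1 chr3:37639697-37639946, plus strand and Spry2 chr14:105896820-105897069, minus strand), while the study used mm39. Capitals mark GGAA or its reverse complement TTCC, the short core that ETS factors such as Etv4 and Etv5 bind.
Dusp6: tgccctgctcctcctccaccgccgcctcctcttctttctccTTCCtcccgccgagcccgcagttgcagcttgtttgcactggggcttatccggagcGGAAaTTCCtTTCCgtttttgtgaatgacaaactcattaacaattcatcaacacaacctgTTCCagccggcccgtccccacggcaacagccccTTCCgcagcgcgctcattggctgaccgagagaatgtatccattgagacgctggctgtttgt
Spry1: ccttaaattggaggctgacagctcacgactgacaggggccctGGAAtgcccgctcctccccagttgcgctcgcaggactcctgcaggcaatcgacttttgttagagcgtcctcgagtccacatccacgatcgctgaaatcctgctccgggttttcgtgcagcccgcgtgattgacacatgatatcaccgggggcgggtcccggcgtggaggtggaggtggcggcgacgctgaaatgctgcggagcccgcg
Spry2: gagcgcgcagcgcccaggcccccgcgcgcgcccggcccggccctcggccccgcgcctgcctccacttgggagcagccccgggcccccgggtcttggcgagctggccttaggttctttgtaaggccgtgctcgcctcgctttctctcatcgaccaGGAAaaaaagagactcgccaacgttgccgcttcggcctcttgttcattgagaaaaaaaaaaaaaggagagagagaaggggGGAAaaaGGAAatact

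The letters GGAA occur on either strand 6 times before Dusp6, 1 time before Spry1 and 3 times before Spry2. In the windows not printed they occur 1 time before Fgf18, and 0 and 4 times before the 2 starts of Etv5. The same length of sequence held them in 93.4% of 32851 RefSeq promoters, with a median of 3 matches. The longer ETS core CCGGAA, found in 12.03% of all promoters, and the TCF/LEF core CTTTGA, found in 13.8%, occur on neither strand in any of these 6 windows. GGAA was added after the other motifs gave no match. A match is a description of the letters and not a binding site.

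Of the ETS factors that ERK signalling switches on, Etv4 measured 8.03, 13.5 and 6.59 CPM in the E12.5 WT embryos, 5.99, 14.49 and 10.6 in the E12.5 HARE5Hs/Hs embryos, 2.59, 3.04 and 2.99 in the E14.5 WT embryos and 2.02, 3.24 and 2.28 in the E14.5 HARE5Hs/Hs embryos. The ages did not overlap, and the 6 E14.5 embryos lay close together. Etv4 fell by 1.71 in WT (edgeR adjusted p = 0.00359, SE 0.36) and by 2.04 in HARE5Hs/Hs (edgeR adjusted p = 0.000856, SE 0.36) on the log2 scale. Etv5, which acts together with Etv4 downstream of FGF receptors, measured 60.2, 87.9 and 44.9 CPM in the E12.5 WT embryos, 64.8, 70.5 and 59.0 in the E12.5 HARE5Hs/Hs embryos, 33.2, 43.8 and 33.6 in the E14.5 WT embryos and 33.0, 40.3 and 48.9 in the E14.5 HARE5Hs/Hs embryos. Within each genotype its ages did not overlap, but E14.5 HARE5Hs/Hs replicate 3 stood above E12.5 WT replicate 3. The log2 change of Etv5 was −0.81 (edgeR adjusted p = 0.0129, SE 0.22) in WT and −0.67 (edgeR adjusted p = 0.0230, SE 0.22) in HARE5Hs/Hs, 1.75-fold and 1.59-fold lower. Its call was lost in WT without E12.5 WT replicate 2 (edgeR adjusted p = 0.0695) or E14.5 WT replicate 1 (0.0517). In HARE5Hs/Hs it was lost without E12.5 replicate 2 (edgeR adjusted p = 0.0817), E14.5 replicate 1 (0.0792) or E14.5 replicate 2 (0.0628).

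**Figure D2:**
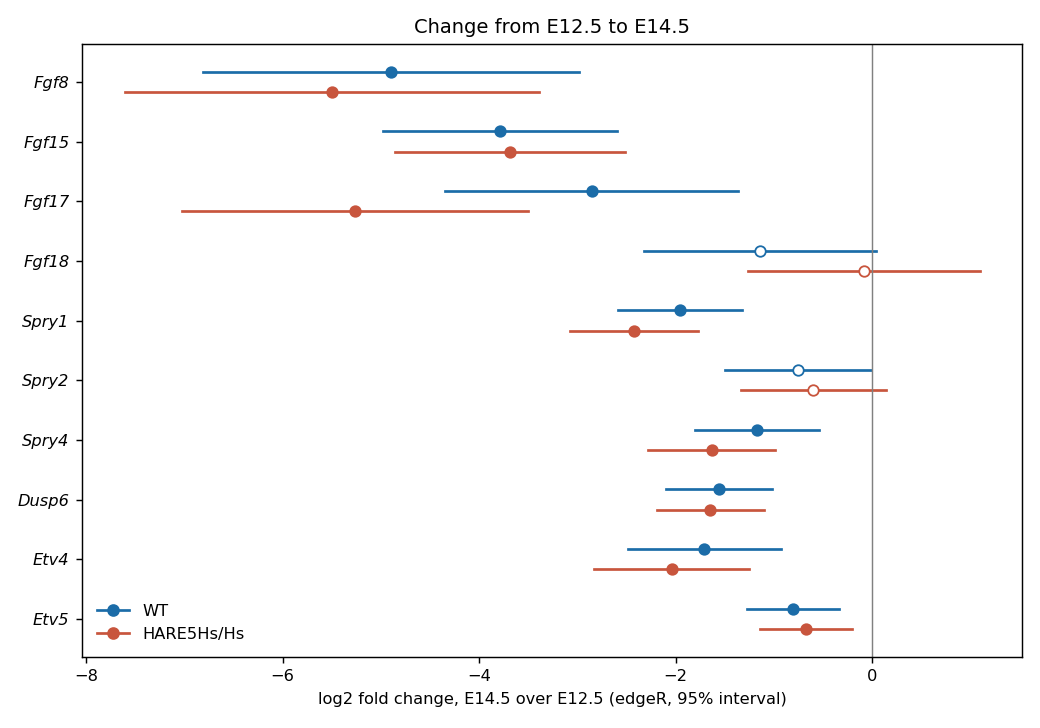
Log2 fold change of each FGF gene from E12.5 to E14.5 in WT and in HARE5Hs/Hs, with 95% intervals from edgeR; filled points have an adjusted p under 0.05. Fgf8, Fgf15 and Fgf17 lie farthest to the left, and the intervals of Fgf18 cross 0 in both genotypes.

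Counted by embryos, 8 of the 10 genes had all 3 E14.5 levels below all 3 E12.5 levels in WT and 8 of 10 in HARE5Hs/Hs, which 22.9% and 29.6% of all tested genes did. Fgf18 and Spry2 overlapped in both genotypes. The authors' deposited table, which compares the same ages within a genotype, called 9 of the 10 in WT and 8 in HARE5Hs/Hs. The additional WT call in the authors' deposited table was Spry2, at −0.78 (adjusted p = 0.0440), and the same table gave −1.16 (adjusted p = 0.0751) for Fgf18.

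The order of the genes by level, per transcript length, differed between the ages. By median FPKM over the 6 E12.5 embryos it ran from high to low as Spry1 (30.8), Fgf17 (18.7), Dusp6 (18.1), Etv5 (17.2), Fgf15 (14.3), Spry2 (7.25), Etv4 (4.34), Fgf8 (2.66), Spry4 (1.83) and Fgf18 (1.81). At E14.5 it was Etv5 (10.1), Spry1 (6.45), Dusp6 (5.72), Spry2 (4.18), Etv4 (1.29), Fgf18 (1.25), Fgf15 (1.17), Fgf17 (0.611), Spry4 (0.607) and Fgf8 (0.0755). Etv5 stood first at E14.5 and Fgf17, second at E12.5, stood eighth. Neighbours in these orders mostly overlapped: at E12.5 Fgf17 spanned 5.04 to 25.6 FPKM, Dusp6 11.4 to 23.5 and Etv5 12.4 to 24.2. At E14.5 the range of Etv5, 9.04 to 13.6 FPKM, overlapped that of Spry1, 3.56 to 9.74, while that of Fgf8, 0 to 0.242, lay below all 6 values of Etv4, 0.936 to 1.52.

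Other genes of the pathway were counted by role. For reference, 20% of all tested genes rose and 15.2% fell in WT, and 23.7% rose and 22% fell in HARE5Hs/Hs. Of 5 FGF receptor genes, 1 fell in WT and 0 passed in HARE5Hs/Hs by edgeR, where 1 had an unadjusted p under 0.05. Fgfr1, the receptor that mediates much of the rostral FGF signal, fell by 0.26 in WT (edgeR adjusted p = 0.0154, SE 0.07), from 231 ± 12.6 to 193 ± 10.4 CPM (SD, n = 3). Its change in HARE5Hs/Hs was −0.16 (edgeR adjusted p = 0.0835, SE 0.07). Fgfr3, a receptor of cortical progenitors, measured 308 ± 87.8 CPM at E12.5 and 297 ± 13.7 at E14.5 in WT, and Fgfr2 117 ± 8.58 and 107 ± 8.98 CPM. The median log2 change of the 5 receptors was −0.12 in WT and −0.07 in HARE5Hs/Hs.

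Of 18 other FGF genes, 5 passed the filter on low counts. None of the 5 fell, 2 rose in WT and 4 rose in HARE5Hs/Hs, where 20% and 23.7% of all tested genes rose. The 4 were Fgf11, Fgf12, Fgf13 and Fgf14, the FGF homologous factors, which stay inside the cell, bind sodium channels and do not act as secreted ligands. Fgf11 had a log2 change of 1.55 (edgeR adjusted p = 0.00387, SE 0.33) in WT and 2.13 (edgeR adjusted p = 0.000414, SE 0.34) in HARE5Hs/Hs, and Fgf13 0.54 (edgeR adjusted p = 0.0277, SE 0.17) and 0.82 (edgeR adjusted p = 0.00221, SE 0.17). Fgf12 and Fgf14 passed in HARE5Hs/Hs at 1.79 and 1.85, and had 0.97 and 0.73 in WT. Over the same days the 8 neuron markers, among them Dcx, Tubb3 and Map2, all rose in both genotypes and summed to 1244 to 2247 CPM at E12.5 and 3307 to 5729 at E14.5. Their part in the changes of the FGF genes was not tested.

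Of 19 further feedback and target genes, 2 rose and 8 fell in WT, and 2 rose and 10 fell in HARE5Hs/Hs. Over all tested genes 20% rose and 15.2% fell in WT, and 23.7% rose and 22% fell in HARE5Hs/Hs. Il17rd (Sef), a membrane antagonist of FGF receptors, fell by 1.63 in WT and 2.21 in HARE5Hs/Hs (edgeR adjusted p = 0.00139 and 0.000164). Dusp9, another ERK phosphatase, had log2 changes of −2.45 and −2.39, and the G1 cyclin Ccnd1 −2.33 and −2.36, all past the threshold. Flrt1, a transmembrane protein that binds FGF receptors, rose by 0.88 and 1.22. Of 23 signal transduction genes 10 rose and 2 fell in each genotype. The adaptor Gab1 rose by 0.95 and 0.88 and the kinase gene Mapk3 by 0.47 and 0.49, the adaptor Grb2 rose by 0.33 and 0.57, while the adaptor Shc1 fell, at −0.91 and −1.21 (WT and HARE5Hs/Hs).

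Among 20 tested genes of heparan sulfate and FGF co-receptors, 4 rose and 8 fell in WT, and 5 rose and 11 fell in HARE5Hs/Hs. The risen part was near that of all tested genes, 20% in WT and 23.7% in HARE5Hs/Hs, where 15.2% and 22% fell. Sulf2, which trims sulfate groups that ligands need, had log2 changes of −1.97 in WT and −2.32 in HARE5Hs/Hs, and the syndecan Sdc1 −1.06 and −1.13. The glypican Gpc2 rose by 1.02 and 1.28, and the syndecan Sdc3 by 0.98 and 1.54. Among 15 tested genes that work with FGF in rostral patterning, 1 rose and 9 fell in WT, and 2 rose and 7 fell in HARE5Hs/Hs. Sp8, a transcription factor that maintains Fgf8 in the rostral centre, had −1.03 and −1.82, from 27.3 ± 4.63 to 13.4 ± 2.34 CPM in WT and from 33.8 ± 2.30 to 9.53 ± 1.10 CPM in HARE5Hs/Hs (SD, n = 3). Six3, a rostral forebrain factor, fell, at −3.62 and −3.80, and Zic1, a factor of the dorsal midline and septum, −1.45 and −2.18.

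**Figure D3:**
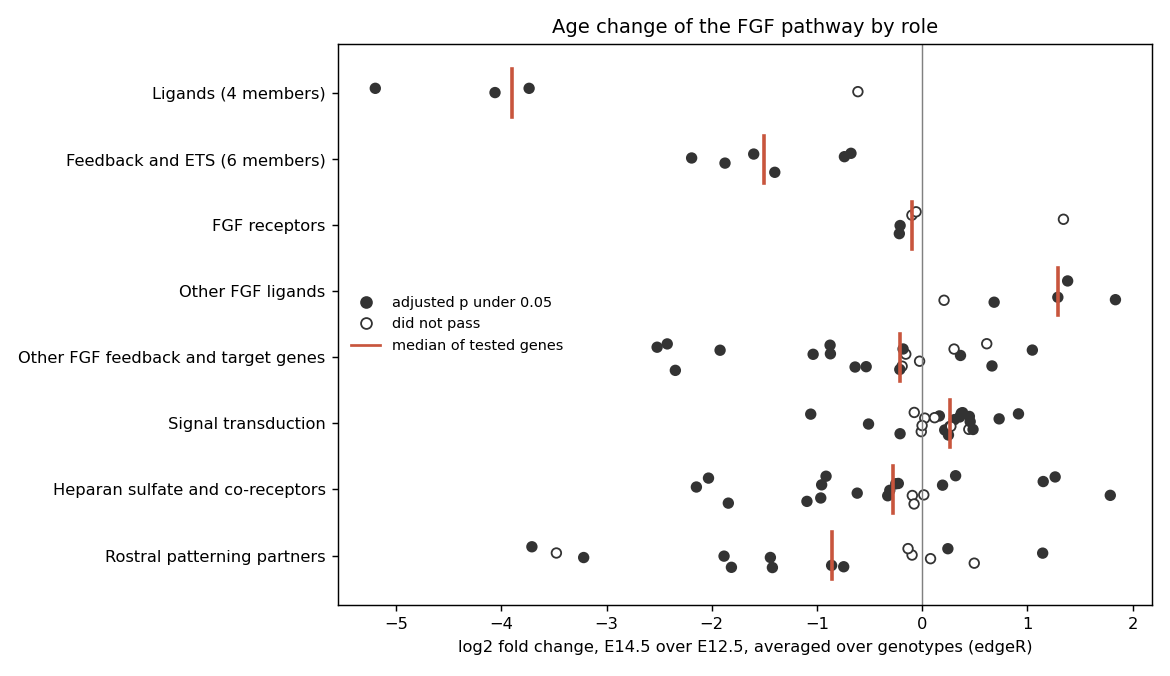
Log2 fold change from E12.5 to E14.5, averaged over the genotypes, of the 10 FGF genes (top 2 rows) and of the tested genes of 6 pathway lists; each point is a gene, filled where the adjusted p is under 0.05, and the bar is the median of the tested genes. The median of the ligands is lowest, that of the receptors near 0 and that of the other FGF genes above 0, with Fgf18 apart from the other ligands and 1 receptor, which did not pass, at 1.34.

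Many markers of neighbouring tissue also fell with age, but not in every list. As a share of all tested genes, 15.2% fell in WT and 22% in HARE5Hs/Hs. Of 10 ventral telencephalon markers, 1 rose and 1 fell in WT, and 1 rose and 2 fell in HARE5Hs/Hs. The 5 Zic genes, used here as markers of the septum and rostral midline where Fgf8, Fgf15 and Fgf17 are known to be made, all fell in both genotypes, and summed to 304 to 497 CPM over the 6 E12.5 embryos and 69.8 to 198 CPM over the 6 E14.5 embryos. Whether the Zic genes mark only that tissue in these libraries was not tested. Of 10 markers of meninges and mesenchyme, 4 fell in WT and 9 in HARE5Hs/Hs, with sums of 1192 to 2244 and 11.8 to 861 CPM. Diencephalon markers (8 genes) summed to 70.8 to 121 and 32.1 to 56.7 CPM, and those of the cortical hem and choroid plexus (11 genes) to 563 to 1029 and 31.0 to 759 CPM. Of the 7 tested diencephalon markers 6 fell in WT and 5 in HARE5Hs/Hs. Of the 11 hem and choroid plexus markers 6 fell in WT and 8 in HARE5Hs/Hs. How much of such tissue each dissection held, and its part in the age change of the FGF genes, was not tested. The 7 markers of the isthmus and midbrain, another known source of Fgf8, summed to only 1.07 to 4.06 CPM at E12.5 and 0 to 1.26 CPM at E14.5, and at E14.5 3 of 7 in WT and 6 of 7 in HARE5Hs/Hs had no count. The 8 radial glia markers summed to 2663 to 3118 CPM at E12.5 and 2350.0 to 2583 CPM at E14.5, with 2 risen and 3 fallen in WT and 1 risen and 5 fallen in HARE5Hs/Hs. Of 6 endothelial markers 5 fell in WT and 6 in HARE5Hs/Hs, with sums of 246 to 345 and 91.5 to 204 CPM.

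Between HARE5Hs/Hs and WT embryos, none of the 10 FGF genes passed at E12.5, at E14.5 or averaged over the ages, and none passed the genotype by age interaction, by edgeR or by DESeq2. In each of the 4 comparisons 0% of all tested genes passed by edgeR. At an unadjusted p under 0.05 there were 0 of 10 at E12.5, 1 at E14.5, 0 averaged over the ages and 1 in the interaction, where 2.25%, 11.9%, 9.55% and 5.11% of all tested genes were. The 1 gene was Fgf17 in both cases. For all 10 genes the 3 HARE5Hs/Hs embryos overlapped the 3 WT embryos at each age. Of all tested genes, 3.34% were higher and 3.81% lower without overlap at E12.5, and 9.48% and 8.93% at E14.5.

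At E12.5 the intervals of the genotype difference were narrower for the feedback inhibitors and ETS factors than for the ligands. Dusp6 had a log2 difference of −0.07 (95% interval −0.58 to 0.45), Etv5 0.01 (−0.45 to 0.47), Spry1 −0.13 (−0.73 to 0.46) and Spry4 0.08 (−0.53 to 0.69). For Spry2 it was 0.09 (−0.64 to 0.82) and for Etv4 0.14 (−0.60 to 0.88). The values of the ligands were −0.20 (−1.59 to 1.18) for Fgf8, 0.21 (−0.79 to 1.21) for Fgf15, 0.44 (−0.89 to 1.77) for Fgf17 and −0.68 (−1.84 to 0.47) for Fgf18. All 10 adjusted p-values of edgeR were 1.00 here. A 2-fold difference in either direction lies outside the intervals of the 4 inhibitors and 2 ETS factors. The interval of Fgf8 holds both directions, those of Fgf15 and Fgf17 only a 2-fold higher and that of Fgf18 only a 2-fold lower level in HARE5Hs/Hs.

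At E14.5 Fgf17 had the largest difference of the 10, −1.97 (edgeR adjusted p = 0.395, SE 0.84) with a 95% interval of −3.79 to −0.15 and an unadjusted p of 0.0361. The WT mean was 3.01 ± 2.55 CPM and the HARE5Hs/Hs mean 0.782 ± 0.235 CPM (SD, n = 3). The embryos overlapped, since WT replicate 1 was lower than all 3 HARE5Hs/Hs embryos and WT replicates 2 and 3 were higher. The count behind the lowest WT embryo was 4, and the counts of the HARE5Hs/Hs embryos were 9, 12 and 11. The log2 difference of Fgf17 ranged from −2.49 without E14.5 WT replicate 1 to −1.28 without E14.5 WT replicate 3. The interaction value of Fgf17 ranged from −3.10 without E12.5 WT replicate 2 to −1.72 without E14.5 WT replicate 3. The log2 difference of Spry1 was −0.60 (edgeR adjusted p = 0.443, SE 0.30) and an interval of −1.25 to 0.06. Spry4 had −0.38 (−1.03 to 0.27), Dusp6 −0.16 (−0.71 to 0.39), Etv4 −0.19 (−0.99 to 0.61), Etv5 0.14 (−0.33 to 0.61) and Spry2 0.25 (−0.50 to 1.00). Fgf15 and Fgf18 stood at 0.31 (−0.94 to 1.57) and 0.37 (−0.83 to 1.57), and Fgf8, with 4 counts in WT and 2 in HARE5Hs/Hs, allows no comparison: the ratio of WT to HARE5Hs/Hs was 1.90 with a counting interval of 0.272 to 21.0.

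Markers of other tissue also lay apart between the genotypes at E14.5, none past the adjusted threshold. All 10 meninges and mesenchyme markers were below 0 in HARE5Hs/Hs over WT (−1.40 to −0.64 on the log2 scale), with sums of 96.3 to 861 CPM (WT) and 11.8 to 445 CPM (HARE5Hs/Hs). All 5 Zic markers were below 0 (−1.10 to −0.22), with sums of 108 to 198 and 69.8 to 122 CPM. All 10 ventral telencephalon markers were above 0, with sums of 22.4 to 40.5 and 54.1 to 128 CPM. The 7 tested erythroid markers were above 0, all with an unadjusted p under 0.05, and the list summed to 773 to 2304 and 2611 to 5868 CPM. Their part in the E14.5 values of Fgf17 and Spry1 was not tested.

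**Figure D4:**
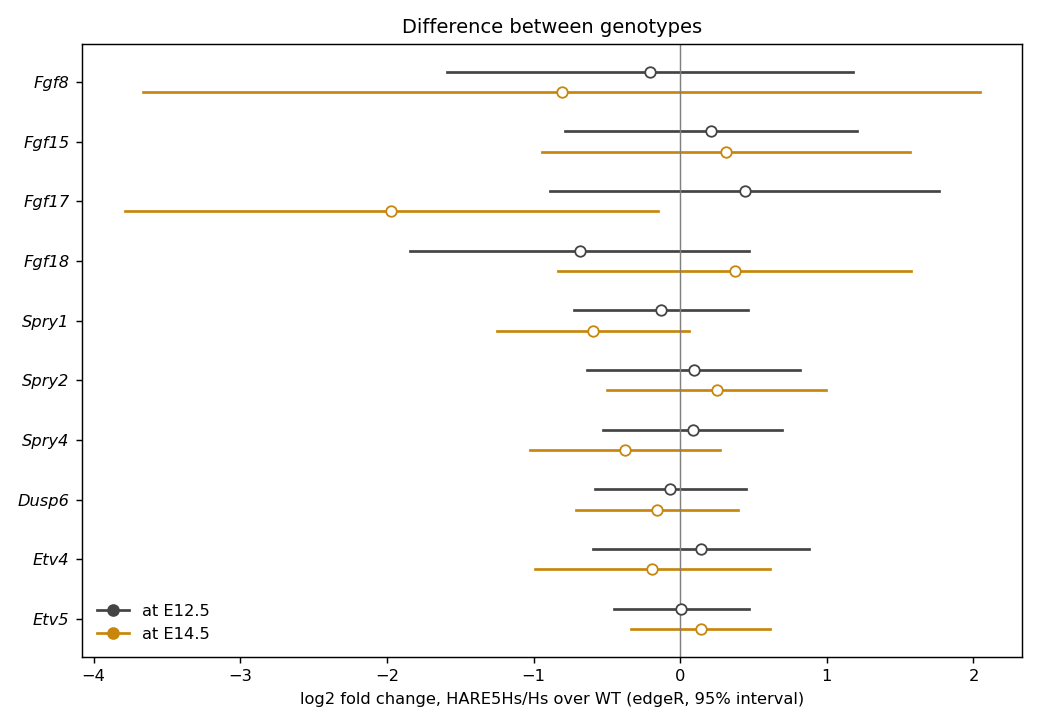
Log2 fold change of each FGF gene in HARE5Hs/Hs over WT at E12.5 and at E14.5, with 95% intervals from edgeR; open points did not pass, which holds for all of them. All intervals cross 0 except that of Fgf17 at E14.5, which lies below 0 before adjustment.

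Some embryos were the lowest or highest of their group for many of the genes. In E12.5 WT, replicate 3 was the lowest of 3 for 9 of the 10 genes and replicate 2 the highest for 8. In E12.5 HARE5Hs/Hs, replicate 2 was the highest for 9 and replicate 1 the lowest for 7. In E14.5 WT, replicate 3 was the highest for 7 genes, and no embryo of E14.5 HARE5Hs/Hs was the lowest or highest for more than 6. The same was not counted over all tested genes, so these counts cannot be read as particular to the FGF genes. With the group means removed, 39 of the 45 pairs of genes had a Pearson r above 0 over the 12 libraries, with a median of 0.44 and a range from −0.49 for Spry4 and Etv5 to 0.90 for Spry2 and Dusp6. These correlations are descriptions: the points of a pair share a library, its depth and its dissection, and the pairs named here were chosen after all 45 were seen. Pairs of other genes were not counted, so the 39 of 45 cannot be read as particular to the FGF genes.

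Spry2 and Dusp6 had the highest r of the 45 pairs (r = 0.90, Spearman's rho = 0.85, and r = 0.86 without the 2 libraries farthest from the median of Spry2). Fgf18 and Etv4 came next (r = 0.82, Spearman's rho = 0.80). Their r was 0.65 without the 2 libraries farthest from the median of Fgf18. Fgf8 and Spry2 had an r of 0.76, Fgf18 and Spry2 0.75, and Spry2 and Etv4 0.71. Fgf8 and Dusp6 followed each other (r = 0.81, Spearman's rho = 0.73, and r = 0.60 without the 2 libraries farthest from the median of Fgf8), as did Dusp6 and Etv4 (r = 0.81, Spearman's rho = 0.78, and r = 0.74 without the 2 libraries farthest from the median of Dusp6). At E14.5 the deviations of Fgf8 rest on raw counts of 1, 0 and 3 in WT and 1, 0 and 1 in HARE5Hs/Hs embryos. Every r of Fgf8 over the 12 libraries includes these values. Spry4 had r under 0 against Spry2, Fgf18, Etv4 and Etv5, and Spry1 had r under 0 against Etv5 (−0.14). Among the Sprouty genes r was 0.33 for Spry1 and Spry4, 0.11 for Spry1 and Spry2 and −0.06 for Spry2 and Spry4. Fgf15 went with Spry1 (r = 0.70, Spearman's rho = 0.73, and r = 0.66 without the 2 libraries farthest from the median of Fgf15). Without E14.5 HARE5Hs/Hs replicate 2 the r of Fgf15 and Spry1 was 0.93 and that of Fgf8 and Dusp6 0.96. The library left out there had 0 counts of Fgf8. Fgf17 and Spry4, at 0.20, went to −0.63 without E14.5 WT replicate 3.

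**Figure D5:**
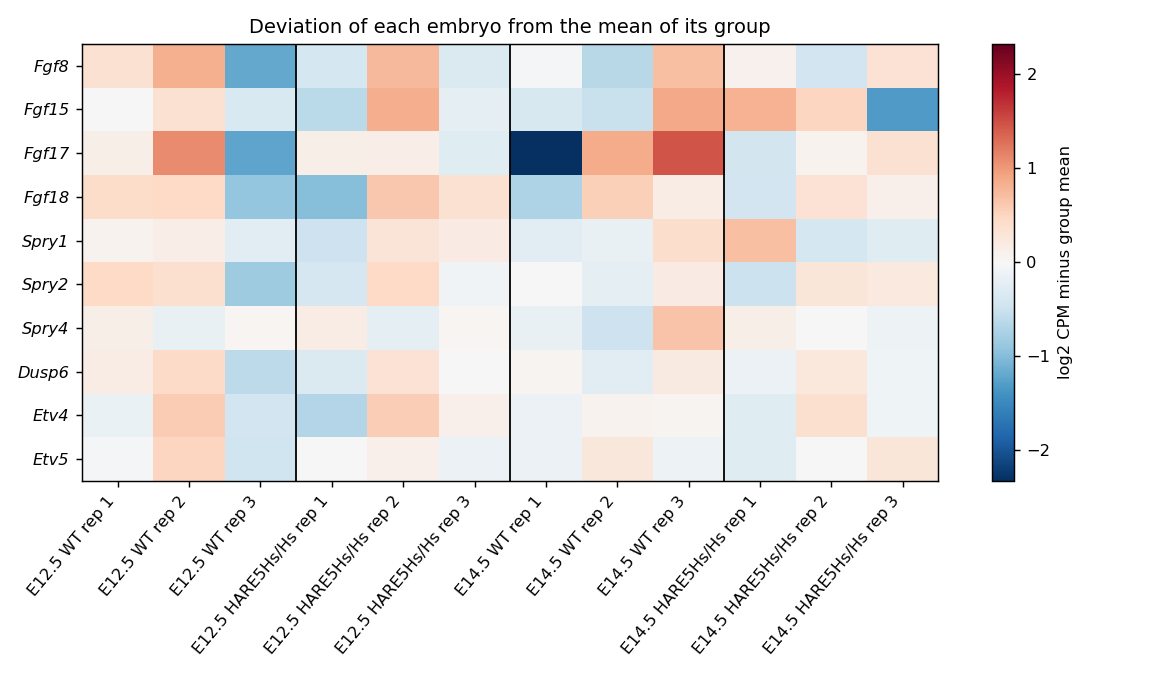
Deviation of each embryo from the mean of its group for each FGF gene, in log2 CPM (prior count of 2); red is above and blue below the group mean, and vertical lines separate the 4 groups. E12.5 WT replicate 3 is blue in nearly every row and E12.5 HARE5Hs/Hs replicate 2 is red in nearly every row.

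The same deviations were set beside the summed markers of 13 lists (130 relations). Fgf15 went with the Zic markers of the septum and rostral midline (r = 0.93, Spearman's rho = 0.97, and r = 0.91 without the 2 libraries farthest from the median of Fgf15). It also went with the meninges (0.85), hem and choroid plexus (0.77), diencephalon (0.74) and surface epithelium (0.74) markers, and against those of cortex (−0.87) and neurons (−0.70). The r with the cortex markers was under 0 for every FGF gene. It was −0.77 for Spry1, −0.70 for Dusp6, −0.62 for Fgf8, −0.59 for Fgf18, −0.56 for Etv4 and −0.50 for Fgf17 and for Spry2. Spry4 had −0.43 and Etv5 −0.04. Spry1 went with the Zic markers as well (r = 0.83, Spearman's rho = 0.81, and r = 0.74 without the 2 libraries farthest from the median of Spry1) and went against the neuron markers (r = −0.87, Spearman's rho = −0.93, and r = −0.85 without the 2 libraries farthest from the median of Spry1). Fgf8 went with the isthmus and midbrain markers (r = 0.90, Spearman's rho = 0.87, and r = 0.86 without the 2 libraries farthest from the median of Fgf8), which rest on the few counts given above. The E14.5 values of Fgf8 also rest on few counts. Dusp6 had r = 0.77 with the isthmus and midbrain markers. Etv5 went against the endothelial markers (r = −0.66, Spearman's rho = −0.75, and r = −0.92 without the 2 libraries farthest from the median of Etv5). Its r was −0.54 with the microglia, −0.52 with the meninges, −0.48 with the hem and choroid plexus, −0.16 with the Zic and 0.25 with the radial glia markers. Spry4 had its highest r with the microglia (0.77) and endothelial (0.75) markers, which were 0.39 and 0.45 without the 2 libraries farthest from its median. The part of dissection or cell makeup in these relations was not tested.

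Of 11941 genes with a symbol and a mean of at least 2 CPM, those whose deviations were most like a member's were found by Pearson r over the 12 libraries. For Fgf15 they were Zic1 (0.972), Tmem47 (0.969) and Gpc3 (0.966), of which Zic1 encodes a midline transcription factor and Gpc3 a glypican. Zic1 is also part of the summed Zic markers set beside Fgf15 above, so the 2 relations are not separate. The most alike gene was Yme1l1 (0.939) for Fgf8, Gpr180 (0.954) for Fgf17, Lrrc57 (0.921) for Fgf18, Tpm4 (0.959) for Spry1 and Stk38l (0.961) for Spry2. It was Thbs1 (0.944) for Dusp6, Sdha (0.946) for Etv4 and Plcb4 (0.956) for Etv5, and the third most like Etv5 was Spred1 (0.930), a Sprouty-related inhibitor of RAS signalling. Each is among the highest of 11941 values over 12 libraries that share depth and dissection, and is given as a description. The value for Fgf8 includes the E14.5 embryos, where its level rests on few counts.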

How the data were processed

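The 12 samples are mRNA libraries (stranded kit, per the labels' protocols) of cortex from single embryos, 3 per group. The submitters' processing notes name STAR, the mm39 build and DESeq2. No source used here gives tool versions, the counting tool, its strand setting or the annotation. Per the file headers, the authors deposited 2 tables, 1 for each genotype. In both, the authors give an expected count and an FPKM for each library, with identical values for the 12 libraries, and the deposited expected counts are whole numbers. They also give the authors' log2 fold change between the ages, and, per the file headers, its standard error (recorded here under the unit score) and its p-value before and after adjustment. Each table also holds 12 columns of 6 libraries that match no sample here, and these were not used.

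The counts were taken into edgeR 4.0.16 and limma 3.58.1 under R 4.3.3, with DESeq2 1.42.0 as an alternative. The filter was filterByExpr (minimum count 10), and libraries were scaled by TMM and fitted with 1 mean per group over all 12 libraries, by quasi-likelihood. The 2-sided p-values were adjusted by Benjamini-Hochberg over 14311 genes in each of 7 comparisons. The SE is the log2 fold change over the square root of F, an approximation. The fit was tested on simulated data. Nothing says whether embryos shared a litter. Alternatives were DESeq2's test, its size factors, no filter, a prior count of 0.5, the replicate number as a block and leaving out each library.

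The members and gene lists were chosen with earlier results of these data known. All 10 members are named, with up to 4 passing genes of each pathway list by smallest p averaged over genotypes, and the 3 genes most like each member, of which the first is given, and for Fgf15 all 3. Some genes that this rule names are not reported here. Spred1, the receptors Fgfr2 and Fgfr3, and the correlations were named after their values were seen. Correlations used log2 CPM (prior count 2) with group means removed. RefSeq promoters were used for 5 of the 10 members, and the rest were missing or left out by rule.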

Additional observations from a re-analysis of the deposited data

How the results depend on the processing

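Under the DESeq2 test, DESeq2 size factors, no filter and the replicate block, all 280 fold changes of the 10 FGF genes kept their direction and their side of the threshold. The replicate block gave 4714 genes called with age in WT (5041 without it) and 8, 8 and 9 FGF genes called in WT, in HARE5Hs/Hs and averaged. The deviations of same-numbered libraries from their group means correlated at −0.44 to 0.34. No differently numbered pairs were set beside them, so these values cannot show whether same-numbered libraries shared a litter or batch. DESeq2 called 35 genes between genotypes at E14.5 and 1 in the interaction, where edgeR called 0. Leaving out 1 library gave 0 to 19 genes between genotypes at E14.5 (19 without HARE5Hs/Hs replicate 1), 0 to 2 in the interaction, and 3245 to 4843 with age in WT (3245 without E14.5 WT replicate 1). It gave 7 to 9 FGF genes falling in WT, 7 to 8 in HARE5Hs/Hs and 8 to 9 averaged. The lowest and highest log2 changes without 1 library crossed 0 only for changes that had not passed: for E14.5 against E12.5 in HARE5Hs/Hs Fgf18 −0.43 to 0.28. The ranges for genotypes at E12.5 were Dusp6 −0.31 to 0.17, Etv4 −0.18 to 0.51, Etv5 −0.19 to 0.30, Fgf15 −0.35 to 0.49, Fgf8 −0.71 to 0.26, Spry1 −0.28 to 0.075, Spry2 −0.22 to 0.31, Spry4 −0.0056 to 0.19. The ranges for genotypes at E14.5 were Etv5 −0.0087 to 0.29, Fgf15 −0.069 to 0.95, Fgf8 −1.34 to 0.41, Spry4 −0.59 to 0.049. The ranges for genotypes averaged over ages were Dusp6 −0.23 to 0.0065, Etv4 −0.19 to 0.16, Etv5 −0.026 to 0.22, Fgf15 −0.018 to 0.58, Fgf18 −0.33 to 0.026, Fgf8 −0.77 to 0.11, Spry4 −0.25 to 0.067. The ranges for the interaction were Dusp6 −0.33 to 0.15, Etv5 −0.16 to 0.33, Fgf15 −0.28 to 0.74, Fgf8 −1.14 to 0.61, Spry2 −0.045 to 0.47. The cause was not tested. Depth limits Fgf8 at E14.5, with 4 and 2 counts over 3 embryos each, and was not tested as a limit for the other ligands.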

Other observations

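None of the 4 intracellular FGF homologous factors passed between the genotypes at E14.5. In WT and HARE5Hs/Hs embryos of that age Fgf11 measured 19.6 ± 6.04 and 23.0 ± 2.27 CPM, Fgf12 2.70 ± 1.31 and 6.26 ± 1.58 CPM, Fgf13 39.0 ± 5.47 and 53.1 ± 10.3 CPM and Fgf14 3.08 ± 1.09 and 7.72 ± 5.44 CPM (SD, n = 3). Their log2 differences, in the same order, were 0.23 (edgeR adjusted p = 0.778, SE 0.32), 1.21 (edgeR adjusted p = 0.395, SE 0.51), 0.44 (edgeR adjusted p = 0.358, SE 0.17) and 1.32 (edgeR adjusted p = 0.4001, SE 0.57), and 3 of the 5 other FGF genes tested had an unadjusted p under 0.05, where 11.9% of all tested genes did. The 8 neuron markers summed to 3307 to 4336 CPM in those WT embryos and 4034 to 5729 CPM in the HARE5Hs/Hs embryos, and their part in these values was not tested.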
